A study of Mus musculus with 2 samples.

Results

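Airn and Kcnq1ot1 are imprinted long noncoding RNAs (lncRNAs) that are transcribed antisense to a protein gene and silence genes around them in cis. Igf2r and Sgce are imprinted protein genes. These 4 genes were chosen by symbol from a table of 3134 listed genes, in which RNA crosslinked to HP1 alpha was compared with input RNA in NIH3T3, an established mouse fibroblast line. The assay was eCLIP. Cells were crosslinked with ultraviolet light (254 nm, 400 mJ/cm2), RNA was trimmed with RNase I, HP1 alpha was precipitated, and RNA was taken from the membrane 75 kDa above the band of HP1 alpha. Per the labels, 1 library was made with the HP1 alpha antibody and 1 without antibody, titled input; both came from untreated cells of the same line, with no transgene named. The labels give both libraries the same protocol text.

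Genomic imprinting restricts transcription of a gene to the copy inherited from 1 parent, through DNA methylation set in the germ line at a control region. Airn starts inside Igf2r and runs against it on the paternal copy, where Igf2r is silent. Kcnq1ot1 starts in an intron of Kcnq1 and is likewise made from the paternal copy. Sgce, which encodes epsilon-sarcoglycan, shares a promoter region with the retrotransposon-derived gene Peg10, and both are expressed from the paternal copy. HP1 alpha reads methylated lysine 9 of histone H3 and is a structural protein of heterochromatin. The counts carry no allele information, so neither imprinting nor silencing was measured.

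The start regions of 3 of the 4 genes are shown, because imprinted transcription in the Airn and Kcnq1ot1 domains is set at or next to the lncRNA starts. They are the RefSeq windows of GRCm38.p6, 5′ to 3′ on the gene's own strand, with every CG dinucleotide in capitals. For the lncRNAs the window runs from 250 bases before to 50 bases after the start, at chr17:12741061-12741360 on the plus strand for Airn and at chr7:143296498-143296797 on the minus strand for Kcnq1ot1. For Igf2r only the 250 bases before the start are printed, chr17:12769707-12769956 on the minus strand.
Airn: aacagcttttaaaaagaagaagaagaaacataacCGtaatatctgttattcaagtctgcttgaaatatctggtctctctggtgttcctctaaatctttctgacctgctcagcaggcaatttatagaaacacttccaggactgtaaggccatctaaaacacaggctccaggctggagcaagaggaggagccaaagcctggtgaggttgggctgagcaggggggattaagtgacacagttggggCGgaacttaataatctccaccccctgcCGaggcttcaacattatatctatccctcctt
Kcnq1ot1: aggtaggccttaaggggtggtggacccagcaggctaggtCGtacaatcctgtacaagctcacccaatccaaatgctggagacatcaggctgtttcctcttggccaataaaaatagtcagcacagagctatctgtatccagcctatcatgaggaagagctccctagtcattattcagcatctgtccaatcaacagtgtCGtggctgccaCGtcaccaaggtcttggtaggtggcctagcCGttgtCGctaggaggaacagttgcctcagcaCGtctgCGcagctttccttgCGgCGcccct
Igf2r: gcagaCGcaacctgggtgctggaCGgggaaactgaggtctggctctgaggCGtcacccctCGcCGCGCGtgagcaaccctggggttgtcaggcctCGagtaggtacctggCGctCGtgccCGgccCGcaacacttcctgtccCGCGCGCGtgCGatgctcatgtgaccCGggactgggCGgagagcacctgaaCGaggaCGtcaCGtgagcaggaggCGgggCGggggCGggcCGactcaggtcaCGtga
The Airn window held 3 CG dinucleotides and the Kcnq1ot1 window held 9, against a median of 7 over 32851 windows of 300 bases; 94.6% of those windows held at least 1. The full Igf2r window of 300 bases held 34, a number that 7.73% of windows reached. The motif CCAAT, the binding sequence of the factor NF-Y, was searched on both strands (CCAAT or ATTGG). It occurred 3 times in the Kcnq1ot1 window, beginning 188, 148 and 67 bases before the start, and 3.37% of windows held as many. It occurred 0 times in the Airn and Igf2r windows, and 37.4% of windows held at least 1. These are matches of letters, and no binding of the factor was measured.

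The sum of listed counts was 513965 for HP1 alpha and 830031 for the input. The table holds genes with at least 100 counts in 1 of the libraries, so these totals are not sequencing depths. Levels are given as counts per 1000000 listed counts of a library (CPM), and the ratio is HP1 alpha over input. Intervals are exact 95% counting intervals from the binomial split of the 2 counts. They cover counting error only, since reads may include PCR copies, and with 1 library a group no difference could be compared with the spread between replicates. A gene was called higher at a ratio of at least 2 with an interval above 1, which 2.36% of listed genes met, and lower at 0.5 or less with an interval below 1, which 1.02% met. Of the 4 genes, 3 were called higher and 0 lower, but for Kcnq1ot1 the listing limit fixed the direction. Of 10 fibroblast markers, 7 were listed, Col1a1 and Fn1 among them, and of 6 immune, epithelial and endothelial markers 0 were listed.

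Airn had the strongest preference for the HP1 alpha library of the 4. Its counts were 824 with the antibody and 424 without, which correspond to 1603 and 511 CPM. The Poisson intervals of these levels, 1496 to 1717 and 463 to 562 CPM, did not overlap. The ratio was 3.14 (2.79 to 3.54), the 2nd highest of all 3134 genes and the highest of 30 lncRNA genes. At a ratio of 1, its input count would have given 263 counts in the HP1 alpha library, so the excess was 561 counts. By count, Airn was number 41 in the HP1 alpha library and number 399 in the input. Airn (ENSMUSG00000078247.3) spans 118574 bases of chromosome 17.

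Kcnq1ot1 was rarer and also higher in the HP1 alpha library, with 145 counts against 98, or 282 and 118 CPM. The level intervals were 238 to 332 and 95.9 to 144 CPM and did not overlap. The ratio of 2.39 (1.84 to 3.12) ranked 28 of all genes and 4 of the lncRNA genes. With fewer counts, its interval was the widest of the 4, the upper bound being 1.70 times the lower, against 1.27 times for Airn. Its input count lies under the listing limit, and a gene with 98 input counts could be listed only at a ratio of at least 1.65. Among the 16 genes listed in this way, whose ratios ran from 1.88 to 3.84 with a median of 2.33, Kcnq1ot1 was number 8. It therefore lay in the middle of the genes that passed the same limit. Kcnq1ot1 (ENSMUSG00000101609.1) spans 83437 bases of chromosome 7, all of them inside the RefSeq span of Kcnq1. This potassium channel gene was not among the listed genes.

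Igf2r, which encodes the receptor that carries insulin-like growth factor 2 and mannose 6-phosphate proteins to lysosomes, went the other way from Airn. Its counts were 319 for HP1 alpha and 664 for the input, or 621 and 800 CPM. The level intervals were 554 to 693 and 740 to 863 CPM, so the HP1 alpha level lay below the input level. The ratio was 0.776 (0.677 to 0.888), which met neither rule and ranked 2139 of all genes; an interval below 1 was found for 32.6% of listed genes. With scaling factors from TMM (edgeR) or DESeq2, which shift every log2 ratio by 0.20 and 0.21, the Igf2r ratio became 0.890 (0.776 to 1.02) and 0.897 (0.782 to 1.03), and the interval no longer excluded 1. Igf2r (ENSMUSG00000023830.9) spans chromosome 17 from 12682406 to 12769706.

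Sgce was the protein gene of the set with a high ratio. Its counts were 191 for HP1 alpha and 129 for the input, or 372 and 155 CPM, with intervals of 321 to 428 and 130 to 185 CPM that did not overlap. The ratio was 2.39 (1.90 to 3.01), number 27 of all genes and 20 of 3054 protein-coding genes. Both counts were above the listing limit, so unlike Kcnq1ot1 its direction was not fixed by the limit. Sgce (ENSMUSG00000004631.11) spans 72855 bases of chromosome 6, from 4674350 to 4747204. In the authors' deposited table, the fold is 3.23 for Airn, 2.46 for Kcnq1ot1, 0.798 for Igf2r and 2.46 for Sgce.

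**Figure D1:**
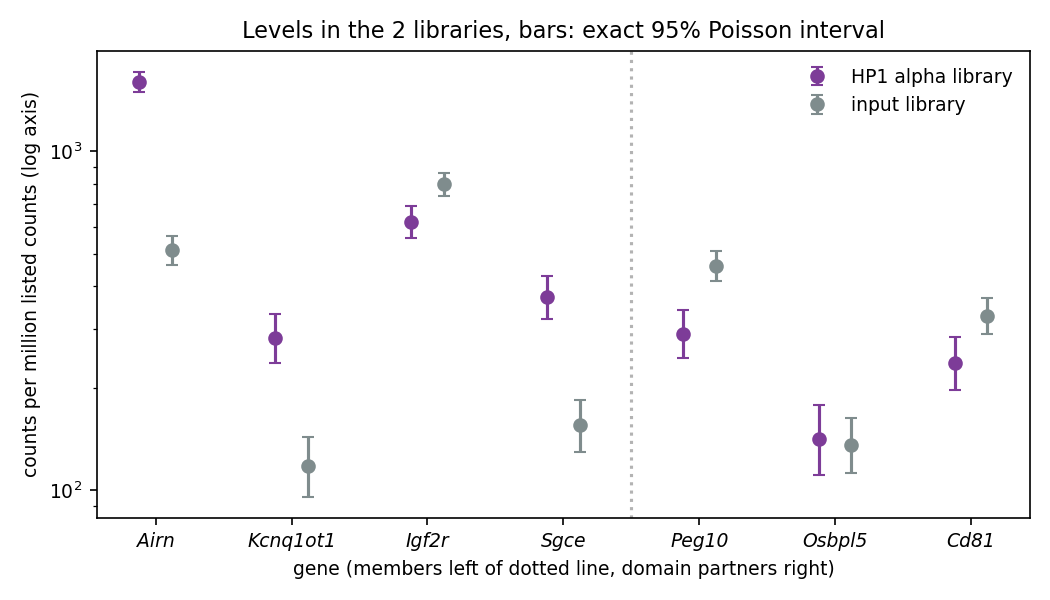
CPM (log axis) of the 4 genes and of 3 domain partners in each library, with exact 95% Poisson intervals; 1 library a group. Airn, Kcnq1ot1 and Sgce lie higher in the HP1 alpha library, and Igf2r, Peg10 and Cd81 lie higher in the input. The intervals of each of these genes are apart, and those of Osbpl5 overlap. The listing limit fixed the direction of Kcnq1ot1.

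Set against each other, Airn and Sgce had higher ratios than Igf2r. The ratio of 2 genes' ratios does not depend on how the libraries are scaled, and all 6 pairs were compared, with exact 95% intervals of the conditional odds ratio and no adjustment over the pairs. Relative to Igf2r, Airn was 4.04 times as high (3.37 to 4.85) and Sgce was 3.08 times as high (2.36 to 4.03). Kcnq1ot1 over Igf2r was 3.08 (2.28 to 4.16), given as a description, since Kcnq1ot1 could be listed only at a ratio of 1.65 or more. Airn over Sgce was 1.31 (1.01 to 1.70), an interval that just excluded 1, but it was 1.17 (0.901 to 1.52), which includes 1, with each ratio taken relative to genes of like span, the 200 listed genes nearest in span. Airn over Kcnq1ot1 was 1.31 (0.979 to 1.76). Sgce over Kcnq1ot1 was 1.00 (0.702 to 1.43). For the same reason, these ratios over Kcnq1ot1 are given as a description, and nothing on a difference is concluded from them.

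Divided by gene span in kilobases, the order of the levels differed between the libraries. In the HP1 alpha library the levels were 13.5 CPM per kb for Airn, 7.11 for Igf2r, 5.10 for Sgce and 3.38 for Kcnq1ot1. In the input they were 9.16 CPM per kb for Igf2r, 4.31 for Airn, 2.13 for Sgce and 1.42 for Kcnq1ot1. No neighbours in either order had overlapping counting intervals; the closest pair was Sgce, 1.78 to 2.53, and Kcnq1ot1, 1.15 to 1.72 CPM per kb in the input. Airn and Igf2r changed places between the libraries. Whether reads were counted over introns is not given in the sources used here, and levels per kilobase of span hold only if they were.

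Airn and Igf2r share 28396 bases, which are 23.9% of the Airn span and 32.5% of the Igf2r span. The strand setting of the counting is not given, so how reads of these shared bases were assigned is unknown. If reads of Airn there had been counted for Igf2r at the mean density of Airn, they would make up 197 of the 319 HP1 alpha counts of Igf2r and 102 of its 664 input counts. The remaining 122 and 562 counts would give Igf2r a ratio of 0.349, below the 0.776 reported. The mean density was taken over the whole Airn span, as if the Airn counts included the shared bases. The reverse case, reads of Igf2r counted for Airn, was not estimated. Apart from this pair, 0 listed genes overlapped the RefSeq span of any of the 4 genes or of Peg10, Osbpl5 and Cd81.

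In the Sgce and Kcnq1ot1 domains, 3 partners from a list of imprinted genes were listed. Of these, 0 were called higher or lower, which is near the 2.36% and 1.02% of all listed genes. Peg10, whose RefSeq span begins 101 bases from the end of the Sgce span, had 149 HP1 alpha counts and 381 input counts, or 290 and 459 CPM. Its ratio was 0.632 (0.519 to 0.765). Sgce over Peg10 was 3.78 (2.79 to 5.13). In the Kcnq1ot1 domain, the ratio was 1.04 (0.766 to 1.41) for the lipid-transfer protein gene Osbpl5, from 73 and 113 counts. It was 0.724 (0.580 to 0.900) for the tetraspanin gene Cd81, from 122 and 272 counts. The listing limit fixed the side of 1 on which Kcnq1ot1 lies, so its ratio is not set against theirs. Sgce over Peg10, and Peg10 over Igf2r at 0.814 (0.641 to 1.03), were added after the values were seen.

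Genes around the 4, imprinted or not, had ratios between 0.632 and 1.04. Within 1 Mb of their spans 8 other genes were listed, with a median ratio of 0.776, against 0.865 over all listed genes. Of the 8, 0 were called higher or lower, which is near the 2.36% and 1.02% of all listed genes. Relative to genes of like span the median log2 ratio of the 8 was 0.052, against 0.0046 over all genes with a known span, so the order of the medians turned. Near Airn and Igf2r, the chaperonin gene Tcp1 had 0.763 (0.629 to 0.922) and the acyltransferase gene Agpat4 had 0.983 (0.760 to 1.27). Near Kcnq1ot1, ratios ran from 0.724 for Cd81 to 1.04 for Osbpl5 over 4 genes. Near Sgce, Peg10 had the lowest ratio and Col1a2, a collagen gene, had 0.722 (0.667 to 0.782). The Airn ratio was 4.05 times the median of its 3 neighbours. That median is the Igf2r ratio, so the value repeats Airn over Igf2r. The Sgce ratio was 3.53 times the median of its 2 neighbours, Peg10 and Col1a2. The Igf2r ratio was 0.790 times the median of its 3 neighbours, which include Airn.

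**Figure D2:**
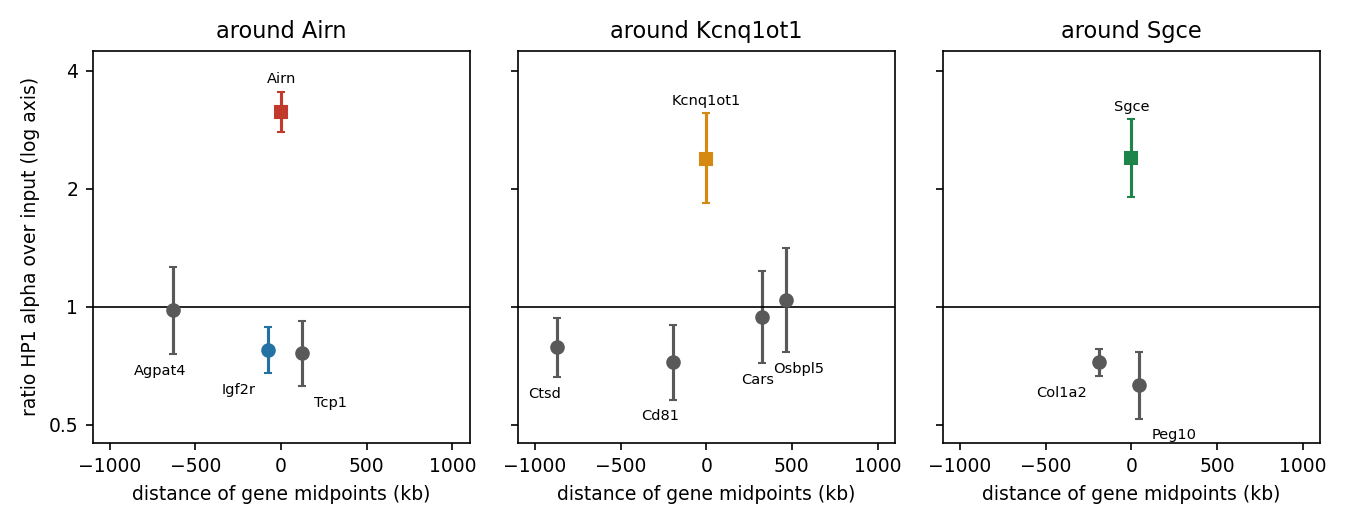
Ratio of HP1 alpha over input (log axis) of listed genes within 1 Mb of Airn, Kcnq1ot1 and Sgce, against the distance between gene midpoints in kb; bars are exact 95% counting intervals and the square is the named gene. Airn at 3.14 and Sgce at 2.39 stand above their neighbours; Kcnq1ot1 is drawn at 2.39, and its place above 1 was fixed by the listing limit.

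Among the listed imprinted genes, a ratio called higher was found in Airn, Kcnq1ot1 and Sgce and in 0 others. For Kcnq1ot1 the listing limit fixed the direction. Of a list of 104 genes, 14 were in the table. Of these 14, 3 were called higher and 0 lower, against 2.36% and 1.02% of all listed genes. Ratios above 1 were found for 7 of the 14, against 30.9% of all listed genes. Their median log2 ratio was -0.098, against -0.21 over all listed genes. Of the 10 without the 4 genes, 0 were called, which is near the shares over all listed genes. Of these 10, 4 had ratios above 1 and the median was -0.26. With TMM and DESeq2 scaling the median of the 14 turned to 0.099 and 0.11. These factors shift every log2 ratio alike, by 0.20 and 0.21. The distance between this median and that over all listed genes is therefore unchanged.

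The next highest imprinted gene was Jade1, which encodes a subunit of a histone acetyltransferase complex, at 1.43 (1.10 to 1.87) from 110 and 124 counts. The ratio was 1.14 (0.856 to 1.51) for the zinc finger gene Plagl1, and 1.10 (0.950 to 1.27) for Ago2, the slicer gene of RNA interference. Both of these intervals include 1. Grb10, the growth-restricting adaptor gene, was the most abundant of the list in the input with 1046 counts, against 525 in the HP1 alpha library, and had 0.811 (0.729 to 0.901). Gnas, the gene of the stimulatory G protein alpha subunit, had 0.834 (0.717 to 0.968), H13, a signal peptide peptidase gene, had 0.786 (0.630 to 0.976), and the retinoblastoma gene Rb1 had 0.829 (0.592 to 1.15). The list was drawn broadly, and some of its genes are imprinted only in certain tissues or species.

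**Figure D3:**
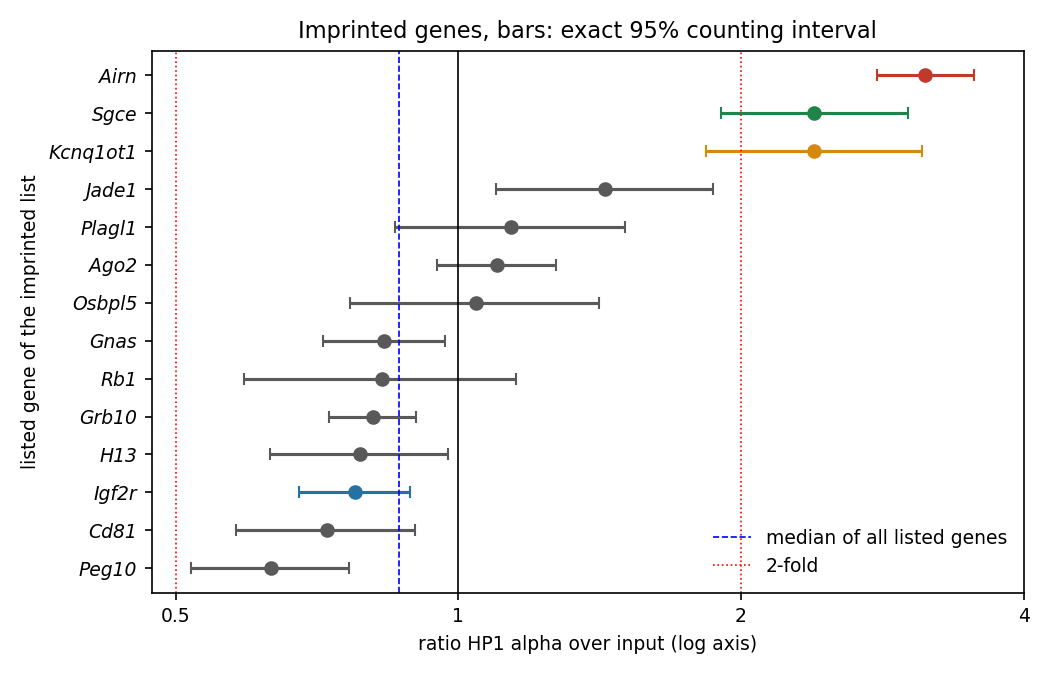
Ratio of HP1 alpha over input (log axis) of the 14 listed imprinted genes with exact 95% counting intervals, 1 library a group; the dashed line is the median of all listed genes and dotted lines mark 2-fold. Airn, Sgce and Kcnq1ot1 lie past 2-fold, and Igf2r at 0.776 lies among the remaining genes, which run from 0.632 to 1.43. The listing limit fixed the direction of Kcnq1ot1.

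Longer genes had higher ratios in this table, so each gene was also set beside the 200 listed genes nearest to it in span. The median ratio of these genes was 1.01 for Airn, 0.898 for Kcnq1ot1, 0.935 for Igf2r and 0.905 for Sgce. Relative to it, the ratio was 3.09 (2.75 to 3.49) for Airn, 2.66 (2.05 to 3.47) for Kcnq1ot1, 2.64 (2.10 to 3.33) for Sgce and 0.830 (0.724 to 0.950) for Igf2r. A ratio at least 2-fold above genes of like span was found for 1.23% of genes with a known span. Kcnq1ot1 could be listed only at a ratio of at least 1.65, so its value on this scale is given as a description. For Sgce, 2 of the 200 genes nearest in span reached its ratio, and 1 of the 200 nearest in mean level did. For Igf2r, 169 of the 200 nearest in span had a ratio at or above its own. Peg10, with a span of 13.2 kb, had 0.865 (0.711 to 1.05) relative to genes of like span, and Sgce over Peg10 on this scale was 3.05 (2.26 to 4.14).

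**Figure D4:**
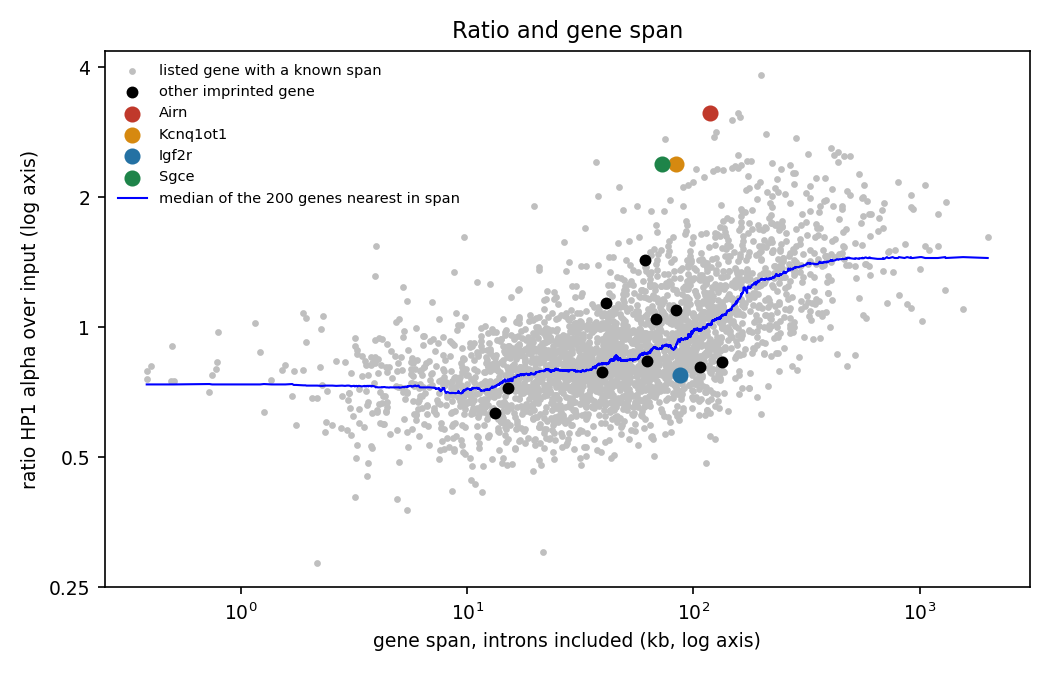
Ratio of HP1 alpha over input against gene span in kb, both on log axes, for 3089 listed genes with a known span; the line is the median of the 200 genes nearest in span. Airn, Kcnq1ot1 and Sgce lie at 3.09, 2.66 and 2.64 times that median and Igf2r at 0.830 times it. The listing limit fixed the side of 1 on which the ratio of Kcnq1ot1 lies.

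The genes most like each of the 4 were those nearest in the plane of log2 CPM in the HP1 alpha library and log2 CPM in the input, a likeness over 2 libraries only. The ratio follows from these levels, so like ratios come from the choice itself. For Kcnq1ot1 they were Rab30, with 150 and 104 counts, and Gpr39, at ratios of 2.33 and 2.17 and spans of 103 and 197 kb, and ENSMUSG00000090399.1, at 2.03, a second row with the symbol Nav1 and no span of its own. For Sgce they were Ccbe1, with 183 and 134 counts, Ror1 and Fam110b, at ratios of 2.21, 2.22 and 2.51 and spans of 235, 349 and 157 kb. The nearest genes with a span of their own are longer than Kcnq1ot1 and Sgce, whose spans are 83.4 and 72.9 kb. For Airn the nearest were ENSMUSG00000102836.1, with 757 and 489 counts, ENSMUSG00000103125.1, with the same counts, and ENSMUSG00000104346.1, 1 of several rows with the symbol PCDHGB6, with 755 and 503. Igf2r was nearest to Setd5, Flnc and Son, at ratios of 0.798, 0.806 and 0.790.

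Of 23 genes for proteins that act in heterochromatin, Polycomb silencing or imprint maintenance, 16 were listed. Of these, 0 were called higher or lower, which is near the 2.36% and 1.02% of all listed genes. Of the 16, 2 had ratios above 1, against 30.9% of all listed genes, and the median log2 ratio was -0.32, against -0.21 over all listed genes. Relative to genes of like span it was -0.078, against 0.0046 over all genes with a known span. Ehmt1 had 1.40 (1.19 to 1.65), while Ehmt2, its partner in the histone H3 lysine 9 methyltransferase complex, had 0.659 (0.529 to 0.816). Dnmt3a, a de novo DNA methyltransferase gene, had 1.27 (0.941 to 1.72). Smchd1 had 0.924 (0.782 to 1.09) and Cbx5, which encodes HP1 alpha, had 0.888 (0.788 to 1.00). The lowest ratios were 0.621 for Cbx1, 0.659 for Ehmt2, 0.676 for Setdb1 and 0.691 for Suz12.

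Each of the 4 ratios kept its side of 1 under the settings tried, which all used the same libraries. For Kcnq1ot1 the listing limit fixed that side. Airn ran from 3.09 relative to genes of like span to 3.63 with DESeq2 factors, and Kcnq1ot1 from 2.35 with a pseudocount of 5 counts to 2.76 with DESeq2 factors. Sgce ran from 2.36 to 2.76 under the same settings. The ratios of Airn, Kcnq1ot1 and Sgce were past 2-fold in every setting that kept them. With listed totals, the lower bounds of Kcnq1ot1 and Sgce were 1.84 and 1.90, below 2-fold. They were also below 2-fold with the authors' constant, the total without the most abundant genes and a pseudocount of 5 counts. With TMM factors, DESeq2 factors and genes of like span they were above 2-fold, the lowest being 2.05 and 2.10. A minimum of 400 counts kept only Airn and Igf2r of the 4.

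**Figure D5:**
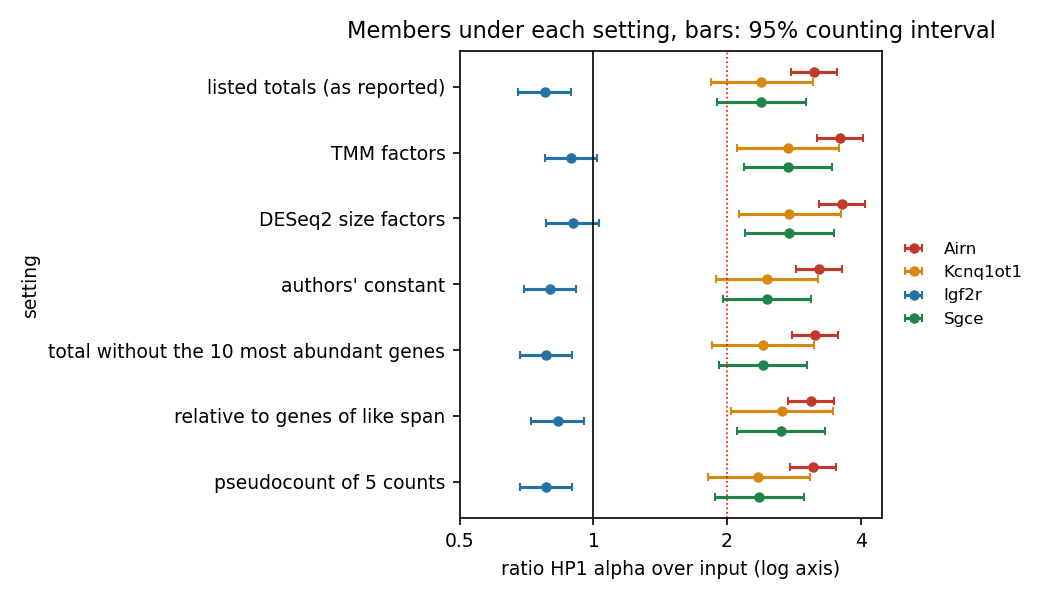
Ratio of HP1 alpha over input (log axis) of the 4 genes under each scaling, reference and pseudocount, with 95% counting intervals. The ratios of Airn, Kcnq1ot1 and Sgce stay right of the dotted 2-fold line. With listed totals, the intervals of Kcnq1ot1 and Sgce begin left of it, at 1.84 and 1.90. They also begin left of it with the authors' constant, the total without the most abundant genes and the larger pseudocount. With TMM factors, DESeq2 factors and genes of like span they begin right of it. The interval of Igf2r reaches 1 with TMM and DESeq2 factors. The listing limit fixed the side of 1 on which Kcnq1ot1 lies.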

How the data were processed

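The authors deposited 1 table with read counts per gene for 1 HP1 alpha library and 1 input library, and a ratio column. The counts are whole numbers with no normalization. Reads were aligned to GRCm38 with STAR 2.6.0c and counted with featureCounts, per the submitters' processing notes. The strand, intron and duplicate settings are unknown here. The columns are headed MEF, and the mock column was taken as the input, the only labelled sample without antibody. In the deposited ratio column the count ratio is multiplied by 1.66, which per the file headers normalizes to total mapped reads. The table had 0 further sample columns.

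Counts were scaled to the listed total of their library. Ratios carry exact Clopper-Pearson intervals (scipy 1.17.1), and pairs carry conditional odds ratios. Log2 ratios used a pseudocount of 0.5. No p-value was computed. The interval and the call were tested on simulated Poisson counts, which hold no PCR copies and no spread between replicates. Spans came from RefSeq GRCm38.p6, where 2969 genes matched by symbol, 120 by a synonym and 45 did not match. Start regions came from RefSeq, and 3 of the 4 genes had one. Alternatives were TMM factors (edgeR 4.0.16), DESeq2 1.42.0 size factors, the authors' constant, a total without the 10 most abundant genes, genes of like span, a pseudocount of 5 and minimums of 1 and 400 counts.

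The 4 genes and all lists were chosen with earlier results of these data known. Named genes were the 4, the 3 genes nearest to each in level, every listed imprinted gene of their domains, the 4 highest and 4 lowest of the other imprinted genes and of the cofactors, and the extremes within 1 Mb.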

Additional observations from a re-analysis of the deposited data

How the results depend on the processing

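No paired analysis was possible because only 1 library exists for each condition, and no replicate could be left out. The Airn ratio of 3.14 became 3.60 (TMM) and 3.63 (DESeq2 factors), outside its counting interval. The Igf2r ratio, 0.776 as reported, was 0.890 and 0.897 with these factors, and 0.349 after removal of the counts that the mean density of Airn would give in the shared bases. The count of listed genes called higher, 74 as reported, was 127 under TMM, 132 under DESeq2 scaling, 38 when set against genes of similar span and 32 when the larger library had to hold 400 counts. The count called lower, 32 as reported, was 10, 9, 4 and 0 under the same settings and 12 with a pseudocount of 5 counts. The higher calls among the imprinted genes fell from 3 to 1 at a minimum of 400 counts, which removed Kcnq1ot1 and Sgce. The median log2 ratio of the genes within 1 Mb turned from -0.36 to 0.052 when set against genes of similar span, and Peg10 over Igf2r went from 0.814 to 1.04. The minimum of 1 count removed no gene. Depth limits Kcnq1ot1 and Sgce most, since their counts are the lowest of the 4 genes. Only the input count of Kcnq1ot1 lies under the listing limit of 100.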
